A study of Mus musculus with 5 samples.

Results

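The Rab family comprises small GTPases that direct vesicles between the compartments of a cell. On these arrays it was taken as every probe set with exactly 1 annotated gene symbol made of Rab, a number and at most 1 letter. This gave 59 genes and 132 probe sets, of 18193 genes and 45101 probe sets in all. Each gene was represented by its probe set with the highest mean over the arrays. Whole blood was drawn by cardiac puncture from adult female mice of 2 F1 crosses, with 1 array per sample. AKR/J was crossed to FVB/NJ in 2 samples (AKRxFVB F1) and DBA/2J to FVB/NJ in 3 samples (DBAxFVB F1). Every animal therefore carried 1 set of FVB/NJ chromosomes, and the crosses differ in the other set. No treatment other than the anaesthetic is given in the labels, and the comparison is of untreated blood between the genotypes.

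A Rab protein switches between a GTP-bound form, which sits on a membrane and recruits effectors, and a GDP-bound form, which is held in the cytosol. Exchange factors load GTP, GTPase-activating proteins end the active state, and the dissociation inhibitor GDI returns the prenylated protein to the cytosol. Each Rab marks particular membranes: Rab1 and Rab2 the path from the endoplasmic reticulum (ER) to the Golgi, Rab5 the early endosome, Rab7 the late endosome, Rab11 the recycling endosome, and Rab27 the secretory granules. In blood these routes serve granule release by platelets and neutrophils, antigen uptake by leukocytes, and transferrin receptor recycling in young red cells.

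Values are on a log2 scale, and differences are DBAxFVB F1 minus AKRxFVB F1 with limma's standard error (SE). Markers of blood were present, with Alas2, the erythroid enzyme of heme synthesis, between 13.45 and 13.59, and the platelet chemokine gene Ppbp between 9.56 and 11.39. Since blood was taken from the heart, 8 cardiac muscle genes were looked at, of which 3 passed the filter on signal (Actc1, Myl2 and Tnnt2). Actc1 read 2.70 and 3.19 in AKRxFVB F1 blood against 4.13, 3.28 and 3.68, and Myl2 read 2.41 and 2.36 against 3.93, 2.83 and 2.74, so both were higher on every DBAxFVB F1 array, most of all on array 1. Both AKRxFVB F1 values of Myl2 lay below the filter, a mean of 2.51. The array medians over probe sets were 2.49 to 2.54. Among the untested genes, the cardiac myosin gene Myh6 read 2.01 and 2.15 against 2.87, 2.23 and 2.49. Tnni3 read 2.03 and 2.24 against 2.80, 2.44 and 2.78, and Nppa 2.17 and 2.36 against 2.47, 2.47 and 2.69. Group means went the other way for Tnnt2 (2.77 against 2.62) and Ryr2 (2.48 against 2.29), and those of Myl7 were 2.08 and 2.14. DBAxFVB F1 array 3 stood apart. The median of its 18 hybridisation control probe sets was 7.99, against 10.01 to 10.12 on the other arrays, and its Gapdh 3' minus 5' difference, a sign of RNA quality, was 1.33. In AKRxFVB F1 blood it was 1.04 and 0.73, and DBAxFVB F1 arrays 1 and 2 gave 0.62 and 0.58. For Actb it was 1.22 and 1.03 against 0.82, 0.68 and 1.32, so by either gene the AKRxFVB F1 arrays lay between DBAxFVB F1 array 3 and the other DBAxFVB F1 arrays. Nothing in the labels tells if the samples of 1 cross are different animals, so p-values reflect only how far these samples vary, and that variation may be technical. An exact permutation test of 2 arrays against 3 cannot give a p under 0.1 and was not used.

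No Rab gene passed the test between the crosses. The Rab genes with the smallest p were 5 that read lower in DBAxFVB F1 blood, namely Rab5a, Rab7, Rab1a, Rab28 and Rab14, with differences between -1.42 and -0.59. Rab13 alone had an unadjusted p below 0.05 in the other direction, with a difference of 0.47. Of the 59 genes, 48 had a mean of at least 2.51, the filter of the test, and 11 did not. Over the 48 tested genes the median difference was -0.06, and 27 were lower and 21 higher. Over all 12421 genes tested, at 1 probe set each, the median difference was 0.05, with 41.7% of genes lower. Limma called 0 Rab genes at an adjusted p below 0.05, and 0% of all probe sets tested (0 of 22519), with a smallest adjusted p of 0.131.

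At an unadjusted limma p below 0.05 there were 6 of 48 Rab genes, or 5 lower and 1 higher. The background was 10.4% of all probe sets tested, and 10% of all genes at 1 probe set each, with 6.4% lower and 3.61% higher. The Rab count was thus near what all genes gave. The groups did not overlap for 9 Rab genes that were lower and 8 that were higher, where the background over genes was 11.9% lower and 17% higher. When AKRxFVB F1 array 1 was left out, 3 Rab genes remained at that p (Rab1a, Rab5a and Rab7), and over all probe sets there were 1271 in place of 2337. With DBAxFVB F1 array 3 left out there were 7 Rab genes, and 2514 of all probe sets (11.2%).

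**Figure D1:**
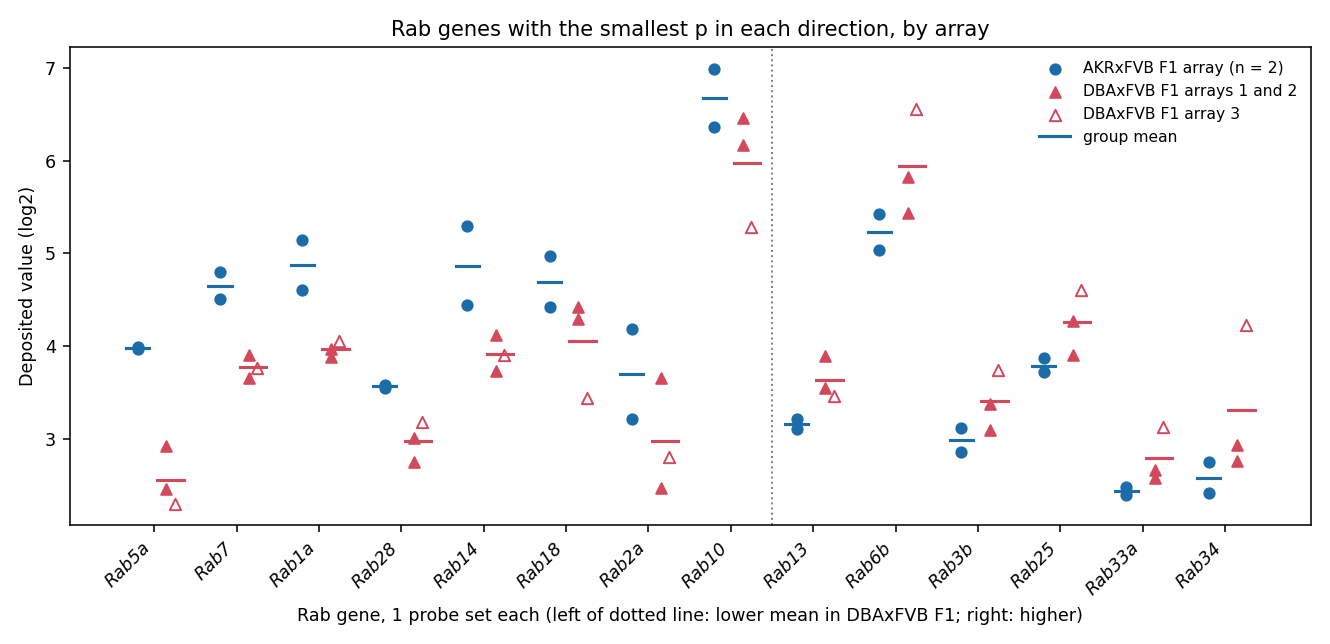
Deposited log2 values (vertical axis) of the 8 Rab genes with the smallest p among those lower in DBAxFVB F1 and the 6 among those higher, with 1 point per array and a bar at each group mean. For Rab5a, Rab7, Rab1a, Rab28 and Rab14 every DBAxFVB F1 point lies below both AKRxFVB F1 points. Rab34, Rab6b, Rab33a, Rab3b and Rab25 are highest on DBAxFVB F1 array 3, drawn as an open triangle.

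Among Rabs of the early endosome, Rab5a, which drives fusion of incoming vesicles with that compartment, had the largest difference of the family. It read 3.99 and 3.97 in AKRxFVB F1 blood and 2.46, 2.92 and 2.30 in DBAxFVB F1 blood. The AKRxFVB F1 arrays were nearly equal, and all 3 DBAxFVB F1 arrays lay more than 1 log2 unit below them. The difference was -1.42 ± 0.21, which is 2.67-fold, with a limma unadjusted p of 0.000159 and an adjusted p of 0.131. The adjusted p ranged from 0.0659 with array weights to 0.716 without AKRxFVB F1 array 1, so it passed in none of the alternatives tried. The DBAxFVB F1 mean of 2.56 is near the array medians, and a single probe set represents the gene. In whole blood, fewer cells of a type and less RNA per cell cannot be told apart. Whether the probes bind the AKR/J and DBA/2J alleles alike was not tested, here or for other genes.

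The other Rab5 genes had smaller differences. Rab5c read 4.46 and 5.16 in AKRxFVB F1 and 4.36, 4.84 and 3.70 in DBAxFVB F1, so the groups overlapped and the difference of -0.51 ± 0.37 rested largely on DBAxFVB F1 array 3. Without that array it was -0.21 ± 0.30. Rab5b had the same mean of 3.06 in each cross, with a difference of 0.01 ± 0.21. Whether the Rab5 genes differ from each other in their response was not tested.

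Rab21, which acts in integrin uptake, had a high signal on 4 arrays, at 6.80 and 7.06 in AKRxFVB F1 and 6.71 and 6.77 on DBAxFVB F1 arrays 1 and 2. It read 5.49 on DBAxFVB F1 array 3. The groups did not overlap, although DBAxFVB F1 array 2 lay just below AKRxFVB F1 array 1, and without array 3 the difference went from -0.61 ± 0.44 to -0.19 ± 0.25. Rab31 and Rab22a, which act between the Golgi and endosomes, differed by -0.16 ± 0.23 and 0.08 ± 0.22. Rab20 was not tested, with values of 1.97 to 2.36.

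Among late endosome and lysosome Rabs, Rab7, which controls fusion of late endosomes and autophagosomes with lysosomes, read 4.80 and 4.51 in AKRxFVB F1. It read 3.90, 3.66 and 3.76 in DBAxFVB F1, so the groups were well apart. The difference was -0.88 ± 0.20 (limma adjusted p = 0.213). A dimmer probe set of Rab7 differed by -0.16 ± 0.23, and the mean of both probe sets differed by -0.52 (adjusted p = 0.402). The mean over all probe sets of a gene also gave smaller values for Rab1a (-0.34), Rab14 (-0.38) and Rab28 (-0.23). The related Rab7b read 2.87 and 3.13 against 3.13, 3.43 and 3.20, a difference in the other direction of 0.25 ± 0.17. Rab24, a Rab of autophagy, differed by -0.18 ± 0.17 and Rab9, which returns receptors from late endosomes to the Golgi, by -0.09 ± 0.15. Rab9b was not tested.

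Of 11 tested Rabs of ER and Golgi traffic, 6 were lower and 5 higher, with a median difference of -0.12, which was 0.10 without DBAxFVB F1 array 3. Rab1a, needed for transport from the ER to the Golgi, read 4.61 and 5.15 in AKRxFVB F1 and 3.88, 3.97 and 4.06 in DBAxFVB F1. The DBAxFVB F1 arrays were close together, and all lay below both AKRxFVB F1 arrays. The difference was -0.91 ± 0.23 (limma adjusted p = 0.246). Leaving out AKRxFVB F1 array 2, the higher of that pair, gave -0.64. Its paralog Rab1b read 4.18 and 4.33 against 4.55, 4.66 and 4.21, a difference of 0.22 ± 0.23 with groups that overlapped.

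Rab2a, which acts on the same route, read 4.18 and 3.21 in AKRxFVB F1 and 3.66, 2.47 and 2.80 in DBAxFVB F1. Values spread widely within each cross, and the difference of -0.72 ± 0.39 ranged from -1.21 without AKRxFVB F1 array 2 to -0.24 without AKRxFVB F1 array 1. Rab18, found on the ER and on lipid droplets, read 4.42 and 4.97 against 4.42, 4.29 and 3.44. Its lowest value was again on DBAxFVB F1 array 3, and without that array the difference went from -0.64 ± 0.34 to -0.34 ± 0.24.

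The Rab6 genes, which act in transport from and to the Golgi, went opposite ways on DBAxFVB F1 array 3. Rab6a read 5.51 and 5.83 in AKRxFVB F1 and 5.42, 6.12 and 4.27 in DBAxFVB F1. Rab6b, best known from neurons, read 5.04 and 5.43 against 5.44, 5.83 and 6.56. On that array Rab6a was the lowest and Rab6b the highest of the 5 values. The difference of Rab6a was -0.40 ± 0.50, or 0.10 ± 0.30 without that array, and that of Rab6b was 0.71 ± 0.37, or 0.40 ± 0.26 without it. The Rab6b value rests on 1 bright probe set, since its other 3 had means of 1.95 to 2.24 and differences of -0.18 to -0.09.

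Rab34, which positions lysosomes and acts in cilia, was highest on the same array. It read 2.75 and 2.41 in AKRxFVB F1 and 2.76, 2.93 and 4.23 in DBAxFVB F1. The difference of 0.73 ± 0.41 was 0.27 ± 0.18 without array 3. Rab33a, a Golgi Rab, read 2.48 and 2.39 against 2.58, 2.66 and 3.13, a difference of 0.35 ± 0.19 near the lower end of the scale. Without array 3 the Rab33a difference was 0.18 ± 0.15. Both of its AKRxFVB F1 values lay below the filter of 2.51, so its mean passed only through the DBAxFVB F1 values. The other tested members of the group, Rab2b, Rab36 and Rab43, differed by -0.21 ± 0.13, 0.22 ± 0.20 and -0.12 ± 0.25. Rab2b passed the filter only through its AKRxFVB F1 values, since its DBAxFVB F1 values were 2.47, 2.40 and 2.44.

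Among Rabs of recycling and exocytosis, 7 of 12 tested members were lower and 5 higher, with a median of -0.06 that turned to 0.03 after quantile normalization and to 0.02 without DBAxFVB F1 array 3. Rab14, which acts between the Golgi and early endosomes, read 5.30 and 4.44 in AKRxFVB F1 and 4.12, 3.73 and 3.90 in DBAxFVB F1. The AKRxFVB F1 arrays were further from each other than array 2 was from the DBAxFVB F1 arrays. The difference was -0.95 ± 0.29 (limma adjusted p = 0.325). Leaving out AKRxFVB F1 array 1 gave -0.52.

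Rab10, Rab8b and Rab11a, which deliver vesicles to the plasma membrane, were lowest on DBAxFVB F1 array 3. Rab10 read 6.37 and 6.99 in AKRxFVB F1 and 6.46, 6.17 and 5.29 in DBAxFVB F1. Rab8b read 5.83 and 6.49 against 6.27, 5.92 and 4.35, and Rab11a read 5.19 and 6.04 against 5.13, 5.69 and 4.45. In each of them AKRxFVB F1 array 2 was the highest. Without array 3 the differences went from -0.71 ± 0.42 to -0.36 ± 0.29 for Rab10 (-0.37 after quantile normalization of all 5 arrays), from -0.64 ± 0.56 to -0.06 ± 0.30 for Rab8b and from -0.52 ± 0.42 to -0.20 ± 0.34 for Rab11a. Rab11b, a recycling endosome Rab with a similar signal on all arrays, read 5.80 to 6.46 and differed by -0.10 ± 0.32. This sign turned in 5 of 15 alternatives, among them the replicate block and leaving out array 3, which give the same difference of 0.05.

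Rab13, which carries cargo to cell junctions, read 3.21 and 3.11 in AKRxFVB F1 and 3.89, 3.55 and 3.46 in DBAxFVB F1. Every DBAxFVB F1 array lay above both AKRxFVB F1 arrays, and array 3 was not the highest. The difference was 0.47 ± 0.19 (limma unadjusted p = 0.0378, adjusted p = 0.442). Rab25, an epithelial relative of Rab11, read 3.72 and 3.87 against 4.27, 3.90 and 4.61, a difference of 0.47 ± 0.25. Without array 3, its highest, the difference was 0.29 ± 0.21. Rab15 differed by 0.39 ± 0.26, Rab12 by 0.22 ± 0.18, Rab35 by 0.13 ± 0.25, Rab8a by -0.18 ± 0.22 and Rab4b by -0.02 ± 0.15, while Rab17 and Rab4a were below the filter.

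Rabs of regulated secretion and lysosome-related organelles were the role group with the highest median difference, 0.19. Of 9 tested members, 7 were higher in DBAxFVB F1. Their differences ranged from -0.08 to 0.60, and 0 of them had an unadjusted limma p below 0.05. The share that was lower was 22.2%, against 41.7% of all genes tested. With median centring, with cyclic loess and without DBAxFVB F1 array 3, 6 of 9 were higher. Rab27b, a Rab of platelet dense granules, read 5.76 and 6.17 in AKRxFVB F1 and 6.53, 6.32 and 5.78 in DBAxFVB F1. The groups overlapped, with the lowest values on AKRxFVB F1 array 1 and DBAxFVB F1 array 3. Its difference was 0.25 ± 0.33, and 0.46 ± 0.26 without array 3.

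Rab27a, which docks lytic granules in cytotoxic lymphocytes, read 2.70 and 3.41 against 3.40, 3.75 and 2.91. The same pair of arrays was lowest, and the difference was 0.30 ± 0.30. Rab38, a Rab of melanosomes and other lysosome-related organelles, read 3.49 and 3.79 against 3.79, 3.94 and 5.0. The high value on array 3 carried most of its difference of 0.60 ± 0.36, which was 0.23 ± 0.19 without that array. Rab32, its close relative, read 1.86 to 2.13 on the 5 arrays and was not tested.

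The synaptic vesicle gene Rab3a had the highest signal of any Rab probe set, at 7.29 and 7.0 in AKRxFVB F1 and 7.42, 7.20 and 7.37 in DBAxFVB F1. That signal does not rank its transcript above others, since probe sets bind with different strength. The groups overlapped, and the difference was 0.19 ± 0.31, or 0.73 after quantile normalization and 0.51 after cyclic loess. Rab3b read 2.86 and 3.12 against 3.10, 3.38 and 3.74, a difference of 0.41 ± 0.22, or 0.25 ± 0.18 without array 3. Rab3d, found on exocrine and mast cell granules, differed by 0.19 ± 0.20. Rab26, Rab37 and Rab44 differed by -0.08 ± 0.19, -0.08 ± 0.24 and 0.04 ± 0.17, and Rab3c was below the filter.

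Of the remaining Rabs, 5 of 6 tested members were lower, or 83.3%, against 41.7% of all genes tested. Rab28, known from photoreceptors and cilia, read 3.58 and 3.55 in AKRxFVB F1 and 3.01, 2.75 and 3.18 in DBAxFVB F1. All DBAxFVB F1 arrays lay below the AKRxFVB F1 pair, and the difference was -0.59 ± 0.18 (limma adjusted p = 0.321). Rab40c differed by -0.36 ± 0.26, with its low value of 2.93 on DBAxFVB F1 array 3, and Rab19, Rab23, Rab29 and Rab40b differed by between -0.07 and 0.06. The 11 Rab genes below the filter had means of 1.95 to 2.5 and differences of -0.21 to 0.40. Without a filter, Rab42 had an unadjusted limma p below 0.05 as well.

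**Figure D2:**
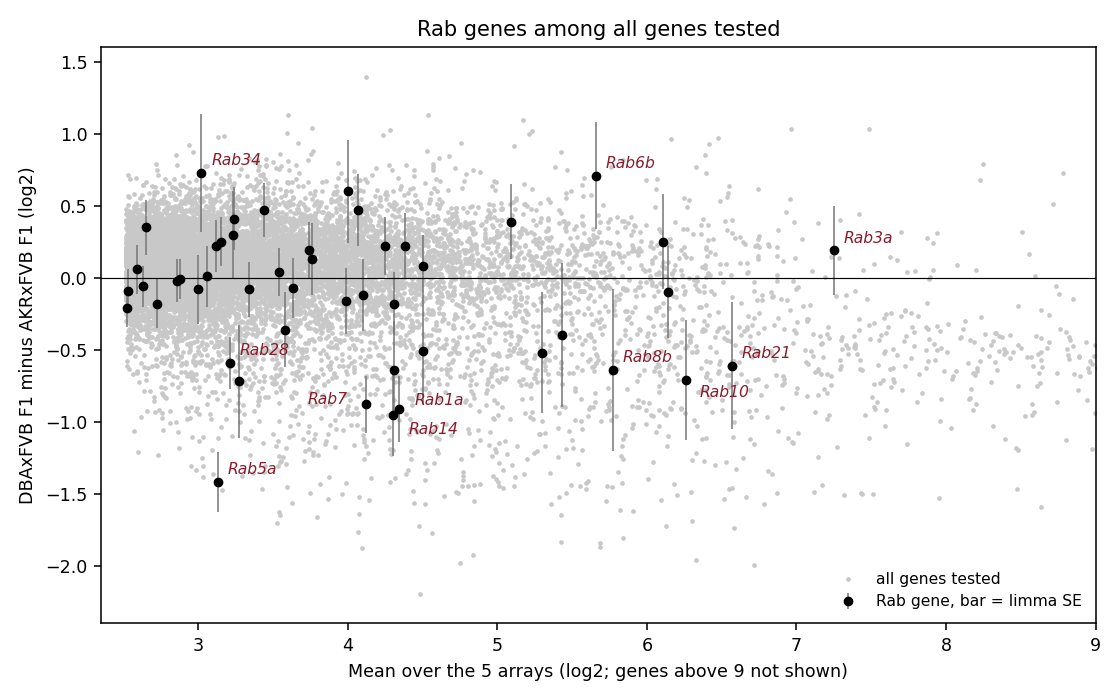
Difference between the crosses (vertical axis, log2) against the mean over the 5 arrays (horizontal axis, log2) for the 48 tested Rab genes in black, with limma's SE, and for all genes tested in grey. Rab genes spread around the same range as other genes of their signal, with Rab5a lowest at -1.42.

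The Rab differences were read against genes of similar signal. For means of 5 or more, 6 of 10 Rab genes were lower with a median difference of -0.25, where 68% of all 1543 such genes were lower and their median was -0.26. For means of 4 to 5, 7 of 12 Rab genes were lower with a median of -0.15, against 43.9% lower and a median of 0.05 over 1932 genes. For means of 3 to 4, 7 of 17 were lower with a median of 0.04, against 37.5% and 0.08 over 4651 genes. For means below 3, 7 of 9 were lower with a median of -0.06, against 35.8% and 0.08 over 4295 genes. The medians of the bright Rab genes and of all bright genes were nearly equal, while at lower signal the Rab medians lay below those of all genes, and these differences were not tested.

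**Figure D3:**
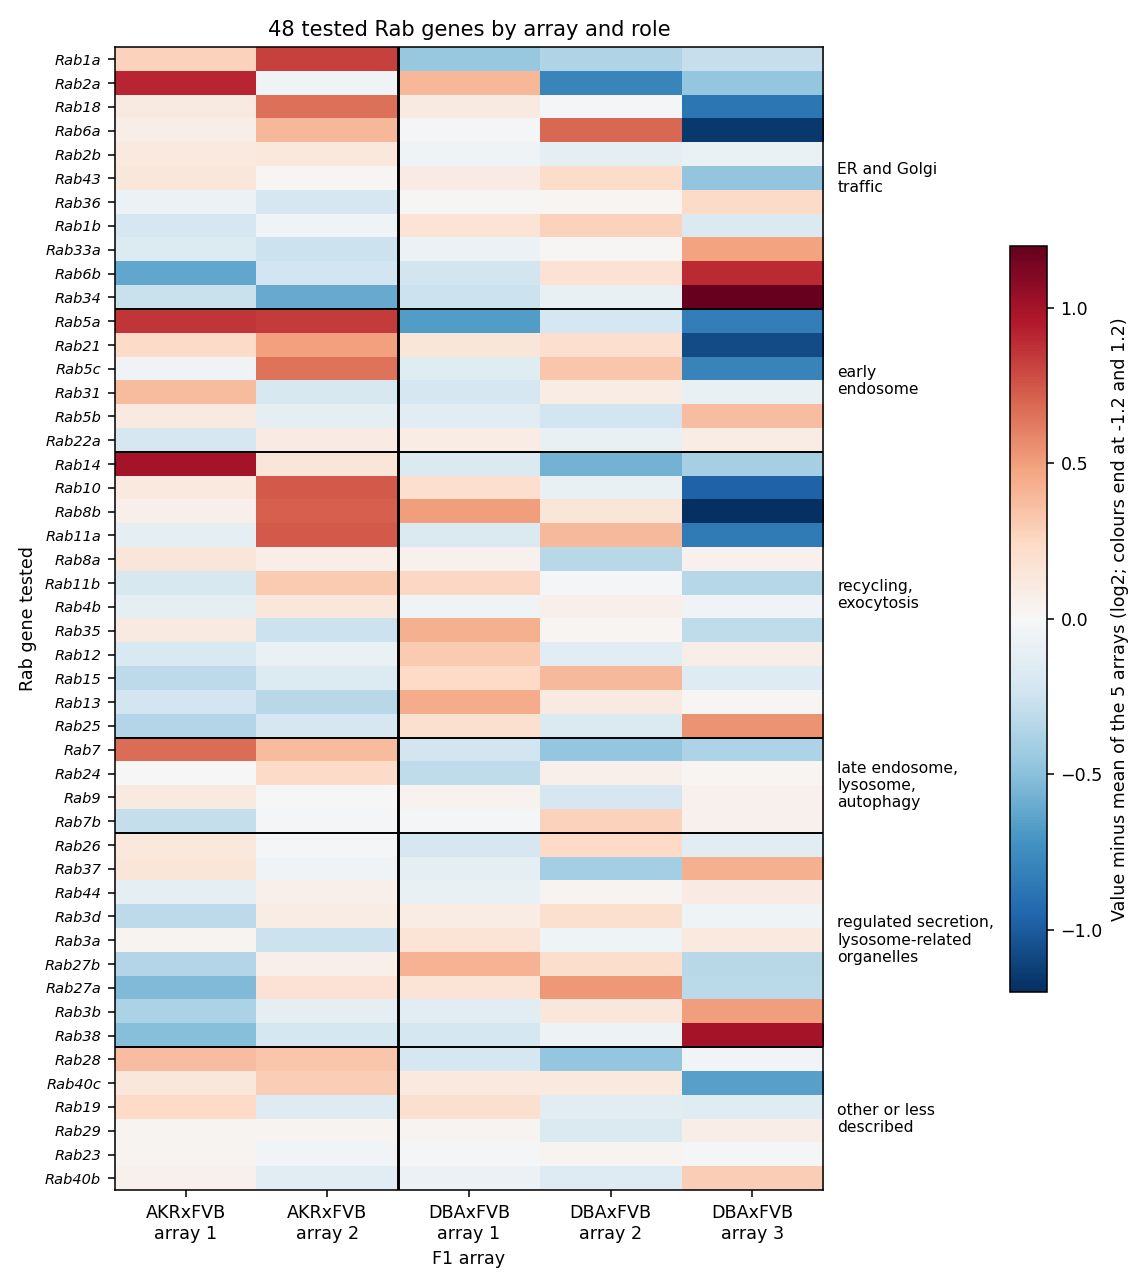
Value of each of the 48 tested Rab genes on each array minus its mean over the 5 arrays (colour, log2), with genes in rows grouped by role and arrays in columns. Rab5a, Rab7, Rab1a and Rab28 are red on the AKRxFVB F1 arrays, and Rab14 is red on array 1 and near white on array 2. These genes are blue or near white on the DBAxFVB F1 arrays. The strongest blue and red values on DBAxFVB F1 array 3 belong to genes such as Rab8b and Rab34.

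DBAxFVB F1 array 3 was the lowest of the 5 arrays for 12 of 48 tested Rab genes, or 25%, against 23% of all genes tested, and the highest for another 12, against 30.6% of all genes. By this count the Rab genes were near or below the background. For Rab genes, large gaps were more frequent on the low side. The array lay more than 0.5 below every other array for 8 of 48 tested Rab genes (Rab10, Rab11a, Rab18, Rab21, Rab40c, Rab5c, Rab6a and Rab8b), or 16.7%, against 6.09% of all genes tested. It lay more than 0.5 above every other array for Rab34, Rab38 and Rab6b, or 6.25%, against 5.35% of all genes. This margin was chosen after the values were seen. Among genes with means of 5 or more, the share that was low on that array was 50% of 10 Rab genes and 34.2% of all genes. Without that array 26 Rab genes were lower, with a median difference of -0.01, against 0.04 over all genes.

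Markers of blood cells also varied between the arrays. The platelet list had its lowest median on the same array: after subtracting each gene's 5-array mean, the median over 11 tested markers was -0.38 and 0.86 in AKRxFVB F1 blood and 0.24, 0.42 and -1.30 in DBAxFVB F1 blood. Their summed level, which is the sum of the log2 values of a list's genes, was 77.2 and 89.4 against 83.5, 85.3 and 68.2. Of these markers 10 of 11 had a lower mean in DBAxFVB F1, and this count rested largely on array 3. On DBAxFVB F1 arrays 1 and 2 the platelet medians and sums lay between those of the AKRxFVB F1 arrays. The array with the highest platelet values, AKRxFVB F1 array 2, was the highest for 13 of 48 Rab genes, or 27.1%, against 17.3% of all genes. Among genes with means of 5 or more these shares were 50% and 35.7%. Of the 8 Rab genes far below the others on array 3, 7 were highest on AKRxFVB F1 array 2 and Rab6a on DBAxFVB F1 array 2. These 8 were picked for their low values on array 3, and the same share over all genes was not worked out. B cell markers followed another order, with a median of 0.90 and -0.05 in AKRxFVB F1 blood and -0.57, -0.50 and 0.07 in DBAxFVB F1 blood. Of 8 B cell markers 7 were lower, with a summed level of 35.0 to 41.6 against 30.3 to 35.4. T cell markers were lower for 7 of 8 and monocyte markers for 6 of 9. Their summed levels were 31.1 to 32.1 against 26.2 to 29.1 and 48.5 to 51.9 against 44.3 to 50.5. The monocyte sum includes Fcgr1, which was below the filter. Other lists did not go that way: 3 of 9 neutrophil markers were lower with a median difference of 0.07, 4 of 8 erythroid markers with 0.01, and 1 of 3 cardiac muscle markers with 0.75. The part of blood cell content, of cardiac muscle RNA, of RNA quality and of array 3 in the Rab differences was not tested. The 5 lower genes with the smallest p, Rab5a, Rab7, Rab1a, Rab28 and Rab14, differed by between -1.29 and -0.69 without array 3.

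**Figure D4:**
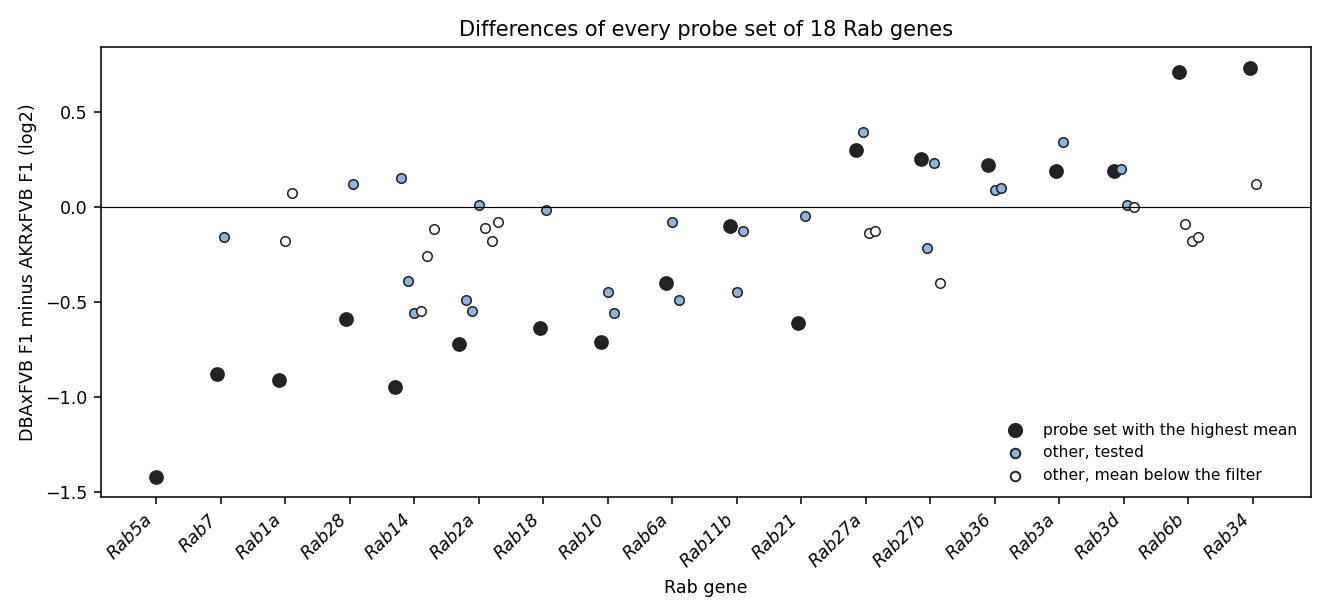
Difference between the crosses (vertical axis, log2) of every probe set of 18 Rab genes picked from those described above after their values were seen, with the probe set of highest mean in black, other tested ones in blue and those with a mean below the filter in white. The probe sets of Rab10, Rab6a, Rab11b, Rab36 and Rab3a lie on 1 side of 0, and those of Rab14, Rab2a and Rab28 do not.

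Probe sets of the same gene were compared with each other. Of 38 Rab genes with 2 or more probe sets, all probe sets lay on the same side of 0 in 16. Among the 22 genes with 2 or more tested probe sets, the tested ones did so in 13. Over the 82 tested Rab probe sets, 46 were lower, with 9 at an unadjusted limma p below 0.05, of which 8 were lower, where 6.79% of all probe sets tested were lower at that p.

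Of 7 probe sets of Rab2a 6 were lower, and 2 dimmer ones with means of 2.89 and 2.86 differed by -0.49 ± 0.16 and -0.55 ± 0.15 (limma unadjusted p = 0.0157 and 0.0071). Of 7 probe sets of Rab14, 6 were lower, between -0.95 and -0.12, and 1 was higher at 0.15 ± 0.20. All 3 probe sets of Rab10 were lower (-0.71 to -0.45), as were all 3 of Rab6a (-0.49 to -0.08), of Rab11b (-0.45 to -0.10) and of Rab8a (-0.18 to -0.10). A dim Rab11b probe set, with a mean of 2.80, differed by -0.45 ± 0.16.

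Other genes had probe sets that disagreed. The second probe set of Rab28, with a mean of 2.55, differed by 0.12 ± 0.16. The other probe sets of Rab1a had means of 2.03 and 1.98, below the filter, with differences of -0.18 and 0.07. For Rab43 the differences ran from -0.12 to 0.37, for Rab22a from -0.27 to 0.08, for Rab27b from -0.40 to 0.25 and for Rab27a from -0.14 to 0.39. All 3 probe sets of Rab36 were higher, between 0.09 and 0.22, and those of Rab3d lay between 0 and 0.20. The probe sets of Rab2b, Rab3c, Rab23 and Rab7b differed by between -0.23 and 0.30, and most had means below 3. Of the 132 probe sets, 6 carry the array maker's suffix for probes that can bind unrelated transcripts, among them the representative ones of Rab3a and Rab38, and these values are uncertain for that reason.

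**Figure D5:**
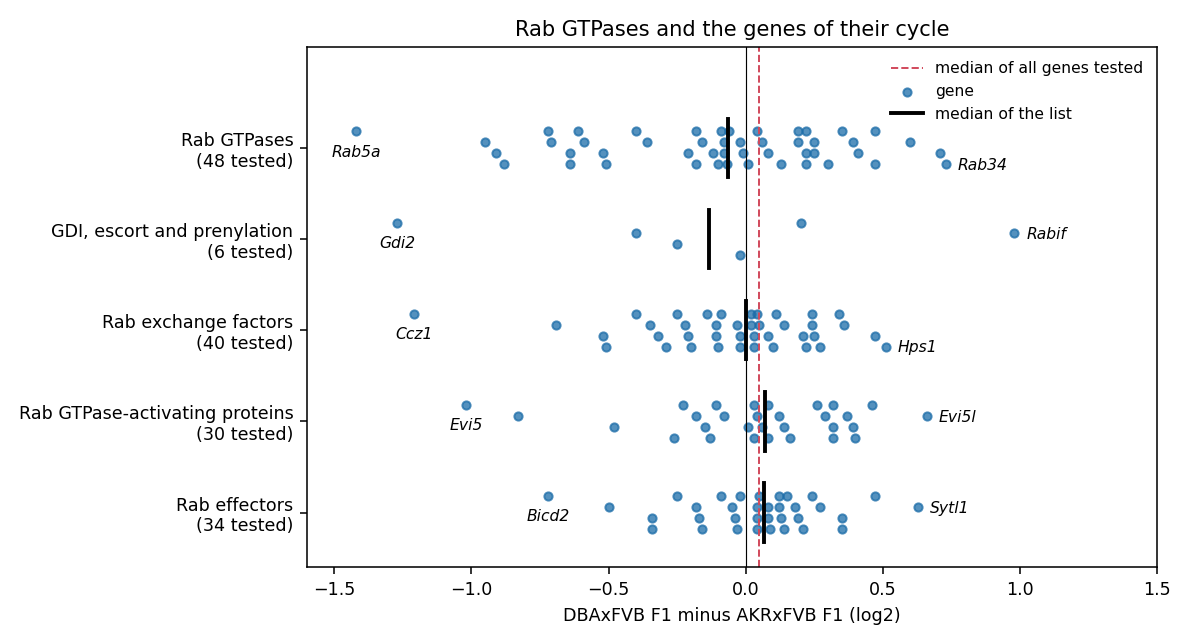
Difference between the crosses (horizontal axis, log2) of each tested gene among the Rab GTPases and in 4 lists of genes that act on them, with the list median as a black bar and the median of all genes tested as a dashed line. The lowest and highest gene of each list are labelled, such as Gdi2 at -1.27 and Rabif at 0.98.

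The genes that act on Rab proteins were described from 4 lists, and none of their members passed over all probe sets. Of GDI, escort and prenylation genes, 4 of 6 tested members were lower, with a median of -0.14 and 1 at an unadjusted p below 0.05. Gdi2, the widely expressed dissociation inhibitor, read 7.24 and 7.04 in AKRxFVB F1 and 5.97, 5.83 and 5.82 in DBAxFVB F1. The arrays of each cross were close together and the crosses lay more than 1 log2 unit apart. The difference was -1.27 ± 0.28 (limma unadjusted p = 0.00204, adjusted p = 0.193). Rabif, a chaperone of nucleotide-free Rabs, read 2.40 and 2.69 against 3.03, 2.86 and 4.67, a difference of 0.98, with its high value on DBAxFVB F1 array 3. Chm, the Rab escort protein, differed by -0.25 ± 0.14.

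Of 40 tested exchange factor genes, 20 were lower and 20 higher, with a median of 0 and 5 at an unadjusted p below 0.05, of which 3 were lower. Ccz1, a subunit of the factor that activates Rab7, read 4.70 and 4.28 in AKRxFVB F1 and 3.49, 2.84 and 3.51 in DBAxFVB F1. The groups did not overlap, and the difference was -1.21 ± 0.26 (limma adjusted p = 0.192). Dennd6a, which acts on Rab14, differed by -0.40 ± 0.14 (adjusted p = 0.403). Hps1, part of the factor for Rab32 and Rab38, read 3.30 and 3.03 against 3.43, 3.66 and 3.92, a difference of 0.51 ± 0.20 (adjusted p = 0.444).

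Of 30 tested GTPase-activating protein genes, 10 were lower and 20 higher, with a median of 0.07 and 3 in each direction at an unadjusted p below 0.05. Evi5l had the smallest limma p, with 3.04 and 2.97 in AKRxFVB F1 and 3.63, 3.50 and 3.86 in DBAxFVB F1, a difference of 0.66 ± 0.17 (adjusted p = 0.251). Its relative Evi5, which acts on Rab11, differed in the other direction. It read 6.38 and 6.84 against 6.07, 5.65 and 5.05, a difference of -1.02 ± 0.37 (adjusted p = 0.405). Tbc1d9 differed by 0.46 ± 0.15. It read 2.16 and 2.47 in AKRxFVB F1, both below the filter of the test. Tbc1d5, also higher at an unadjusted p below 0.05, read 2.33 and 2.34 there, again below the filter. The means of Tbc1d9 and Tbc1d5 thus passed the filter only through the DBAxFVB F1 values.

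Of 34 tested effector genes, 13 were lower and 21 higher, with a median of 0.06 and 2 at an unadjusted limma p below 0.05, each higher. Rims2, a scaffold that binds Rab3 at release sites, read 2.5 and 2.52 in AKRxFVB F1 and 3.10, 2.81 and 3.03 in DBAxFVB F1, a difference of 0.47 ± 0.15. Its values lie near the array medians. Sytl1, which binds Rab27, read 3.0 and 2.98 against 3.25, 3.55 and 4.06, a difference of 0.63 ± 0.24, and Uso1, the tether bound by Rab1, differed by -0.50 ± 0.24. Against the background of 10.4% of probe sets, the shares at an unadjusted p below 0.05 were 1 of 6, 5 of 40, 6 of 30 and 2 of 34 in the 4 lists.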

How the data were processed

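Total RNA of whole blood was measured on 5 Affymetrix arrays, 2 of AKRxFVB F1 and 3 of DBAxFVB F1 females, grouped by the source label. Per the labels' protocols, RNA was extracted with Trizol, amplified with the array maker's 2-cycle kit and labelled with biotin. The deposited table holds normalized values made by the authors, taken here as log2 from their range of 1.29 to 14.8, since no label states the base. MAS5 and RMA are named per the submitters' processing notes, and which of them gave these values is not given in the sources used here. If low signals were compressed, differences of dim probe sets are understated.

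Of 45101 probe sets, 64 were controls, and 34958 had 1 gene symbol in the platform annotation, 932 several and 9211 none. All 59 Rab gene identifiers matched the GRCm38.p6 gene table, which changed 0 symbols. The 22519 non-control probe sets with a mean at or above the median of 2.51 went into a fit by limma 3.58.1 (R 4.3.3; cross as the only term, variance trend, Benjamini-Hochberg adjustment over all probe sets tested). Simulated data were used to test the fit. Over 10 runs it called 184 of 1000 probe sets changed by 1 log2 unit, 702 of 1000 changed by 2 units and 22 of 223190 unchanged ones. The simulated noise was independent between probe sets and equal on all arrays, so these counts need not hold for the real arrays.

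The members, role groups and lists were chosen with earlier results of these data known. Named were the 8 Rab genes with the smallest p lower in DBAxFVB F1, the 6 higher, the 5 with the highest signal, those with 3 or more probe sets, 4 granule genes, and 3 genes per list of the Rab cycle. Values of other Rab genes (such as Rab8b, Rab5c and Rab11a) were added after they were seen. Python 3.11.15 with pandas 2.3.3 and matplotlib 3.10.9 made the summaries and plots. Alternatives were other normalizations, filters and variance models, array weights, a replicate block, leaving out arrays in turn, and the mean of a gene's probe sets.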

Additional observations from a re-analysis of the deposited data

How the results depend on the processing

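No probe set passed at a limma adjusted p below 0.05 in the deposited values or in the 14 alternatives run on probe sets, and no named Rab gene passed in any alternative. The number of Rab genes at an unadjusted p below 0.05, 6 in the deposited values, was 5 to 7 under other normalizations, filters, variance models, weights and the mean of probe sets. It ranged from 3 to 9 with 1 array left out, where without AKRxFVB F1 array 1 it was 3. Rab1a, Rab5a and Rab7 were among these genes with each array left out. The median over Rab genes lay between -0.11 (median centring) and -0.01. That of effectors went from 0.06 to 0.02 with median centring and 0.01 with cyclic loess. The sign turned for Rab11b after quantile normalization (0.24), cyclic loess normalization (0.09) and the replicate block (0.05), and leaving out 1 array gave differences from -0.35 to 0.16. The sign also turned for Rab27b with the mean of its probe sets (-0.04), and for Rab27a without AKRxFVB F1 array 1, with a range of -0.06 to 0.65 over the arrays left out. The cause was not tested. With the replicate number as a block, the Rab count was 8, of which 6 were among the 6. Over all probe sets the share at that p was 10.8% with the block. It was 9.89% without DBAxFVB F1 array 1, which gave the count of 9. Under the other normalizations, filters, variance models and weights it ranged from 8.62% (no filter) to 12% (array weights). Since DBAxFVB F1 array 3 is the only array numbered 3, the block removes it from the differences. They equal those without that array, such as 0.05 for Rab11b and -1.29 for Rab5a. The numbers share no stated source: deviations from the group means correlated at -0.26 for arrays numbered 1 and 0.17 for those numbered 2.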
